A study of Mus musculus with 6 samples.

Results

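The AP-1 family is a set of transcription factors that bind DNA as pairs through a basic region and a leucine zipper, and 9 of its genes were followed here: Fos, Fosb, Fosl1, Fosl2, Jun, Junb, Jund, Atf3 and Batf. They were taken by name from a table of 20255 mouse genes, each gene represented by the array row of highest mean whose only symbol was that of the gene. All 9 were found, in 11 rows, and all 9 lay above the filter that left out the dimmest 25% of genes, so that 15191 genes were tested. The members were chosen by family, with the levels in these same samples known: Fos and Fosb had differed between high and low regeneration. The row of each gene was selected on its mean level. The differences of the members between the groups are therefore given as a description, with no p-value for a single member.

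The samples were whole skin biopsies of mouse wound scars, measured on Affymetrix exon arrays. A large wound in mouse skin can form new hair follicles within its scar, and animals differ in how many they form. There were 3 scars from mice with high regeneration of follicles and 3 from mice with low regeneration, with 1 scar of each group taken at days 4, 6 and 9 after wound closure. By the study's design text the low group formed no new follicles, whereas the labels speak of a low level. All animals were wounded and no other treatment is named; strain, genotype, age and sex are not given in the labels, and it is not said whether any samples came from 1 animal. The number of arrays, 3 a group, limits the precision of every value.

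AP-1 works as a dimer. Jun proteins pair with one another or with Fos proteins, while Fos proteins need a partner. Fos, Fosb, Jun, Junb and Atf3 are immediate early genes, which are transcribed within minutes after a cell meets serum, growth factors, stress or injury, with no need for new protein. In skin, AP-1 is known for roles in the growth and differentiation of keratinocytes, in the spread of the epidermis over a wound and in the control of genes for matrix-degrading enzymes.

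The arrays were alike in overall level, with medians of 6.04 to 6.10 log2 units over 53145 rows. All 6 basal keratinocyte markers and all 6 fibroblast markers examined lay above the dim filter. Some samples stood apart from the rest. The low-regeneration scar of day 9 had an Xist level of 12.77 log2 units, against 5.75 to 7.30 in the others. Its level of Uty, a gene of the Y chromosome, was 3.88, against 7.46 to 8.07. Xist is made from the inactive X chromosome of females, so group and sex cannot be told apart in that pair. The 7 inner root sheath and hair shaft markers had a mean level of 11.2 log2 units in the high-regeneration scar of day 4 and of 6.67 in the low-regeneration scar of day 9, against 8.20 to 8.76 in the other samples. The differences of the 9 genes are given for each day pair, so that the pairs holding these samples can be read apart.

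Of the 9 AP-1 genes, 8 were higher in the high-regeneration scar at all 3 days, and Batf was not. For these 8 genes all 3 high-regeneration samples lay above all 3 low-regeneration samples. Over all genes tested, 15.8% were higher at all 3 days and 5.08% had such separate groups, with 6.18% separate in the opposite direction. With limma, day as a block and a Benjamini-Hochberg adjusted p under 0.05, Fos and Fosb, 2 of the 9, passed, against 0.0527% of all genes; since this comparison led to the choice of the family, nothing is read from these counts. After quantile normalization, without the dim filter, or without the pair of day 4 or day 9, 0 of the 9 passed. The mean differences ran from -0.066 log2 units for Batf to 1.52 for Fosb. Their median was 0.65, beside -0.0028 for all genes. In whole tissue, fewer cells of a type and less RNA per cell cannot be told apart.

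**Figure D1:**
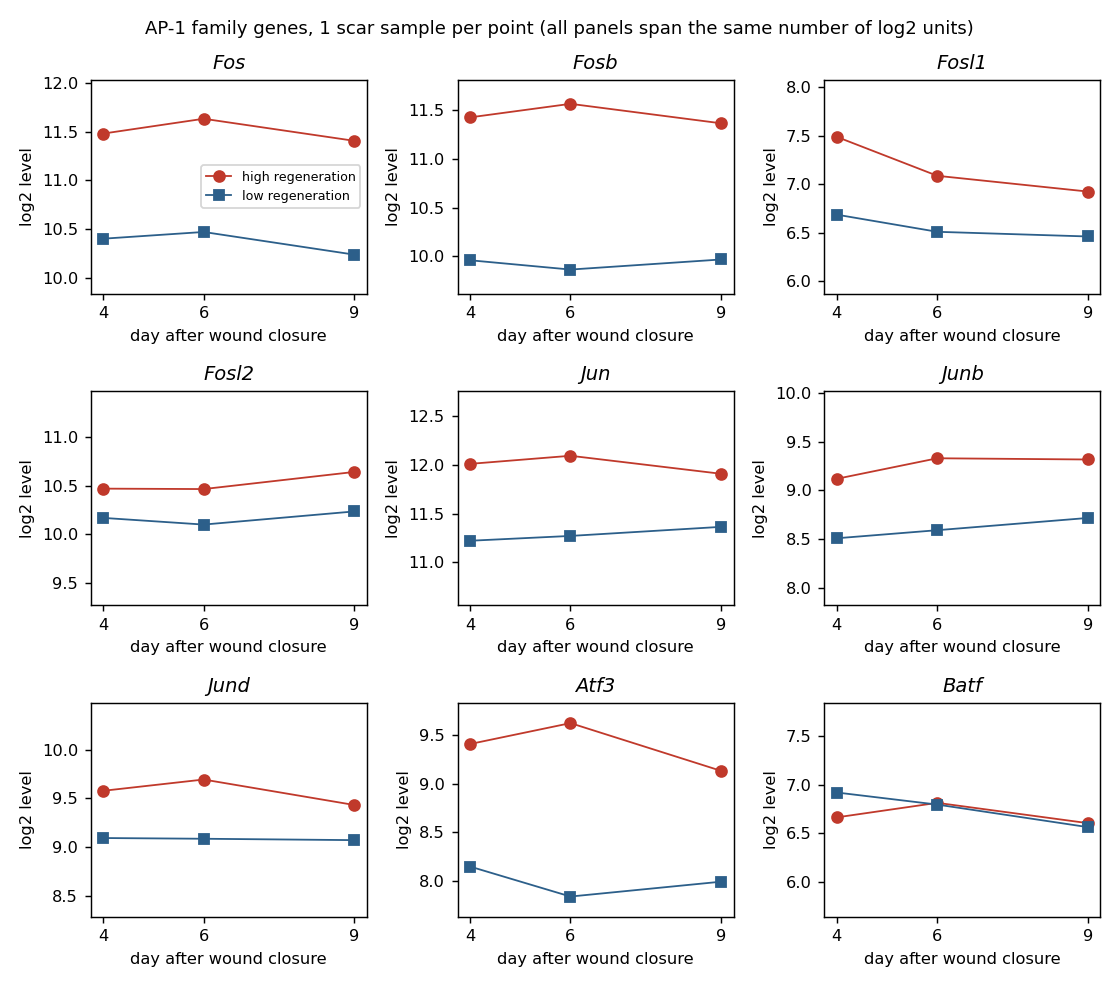
Log2 level of each AP-1 gene (vertical axis) against day after wound closure (horizontal axis), with 1 point per scar sample, circles for high and squares for low regeneration, and panels of equal span. The circles lie above the squares at every day for all genes but Batf, where the lines meet at days 6 and 9.

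The differences of the Fos subfamily ran from 0.36 to 1.52 log2 units. Fos encodes the founding member, which activates transcription when paired with a Jun protein. Its log2 level was 11.48, 11.63 and 11.41 in the high-regeneration scars of days 4, 6 and 9, and 10.40, 10.47 and 10.24 in the low-regeneration scars. The lowest high sample lay 0.94 above the highest low sample, and each group spanned 0.23. The mean difference was 1.14 ± 0.05 log2 units (SD of 3 pairs), or 2.20-fold. The day differences were 1.08, 1.16 and 1.17, and their SD was the smallest of the 9 genes.

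Fosb encodes a close relative of Fos whose message is also spliced to a shortened form, a distinction that a level per gene does not show. Its log2 level was 11.43, 11.57 and 11.37 in the high group at days 4, 6 and 9, and 9.96, 9.86 and 9.97 in the low group. The low samples lay within 0.10 of one another, and the pair differences were 1.47, 1.70 and 1.40. The mean difference of 1.52 ± 0.16 log2 units (SD of 3 pairs), or 2.88-fold, was the largest of the family.

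Fosl1, also called Fra-1, encodes a Fos protein without the activation domain of Fos and is known to rise in keratinocytes at a wound's edge. The Fosl1 level was 7.49, 7.09 and 6.92 log2 units in the high group at days 4, 6 and 9, and 6.69, 6.51 and 6.46 in the low group. The high group was lower at each later day, and its day 9 sample lay only 0.24 above the highest low sample. The difference was 0.80 at day 4, 0.58 at day 6 and 0.46 at day 9, with a mean of 0.61 ± 0.17 (SD of 3 pairs), or 1.53-fold.

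Fosl2, also called Fra-2, encodes the Fos protein with a known role in fibrosis of skin in mice. Fosl2 read 10.47, 10.47 and 10.64 log2 units in the high group at days 4, 6 and 9, and 10.17, 10.10 and 10.24 in the low group. This was the smallest difference among the 8 genes that were higher at all days, 0.36 ± 0.05 (SD of 3 pairs), or 1.28-fold, with 0.30, 0.37 and 0.41 at the 3 days and a gap of 0.23 between the groups. A dimmer second row of Fosl2, not used above, read 6.43, 6.55 and 6.72 in the high group and 6.01, 6.08 and 5.89 in the low group. Its difference of 0.58 ± 0.22 (SD of 3 pairs) had the same direction at every day, and it was larger at day 9, with 0.83 against 0.41 in the brighter row.

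The Jun subfamily differed by less than Fos and Fosb, and its members lay close to one another. Jun encodes the partner that can also bind DNA as a pair of itself. Its log2 level was 12.01, 12.09 and 11.91 in the high group at days 4, 6 and 9, and 11.22, 11.27 and 11.36 in the low group. The groups were 0.55 apart at their nearest samples, both of day 9. The pair differences were 0.79, 0.82 and 0.55, and the mean was 0.72 ± 0.15 (SD of 3 pairs), or 1.65-fold.

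Junb encodes a Jun protein that is a weaker activator and can oppose Jun in cell growth. The Junb level was 9.12, 9.33 and 9.32 log2 units in the high group at days 4, 6 and 9, and 8.51, 8.59 and 8.72 in the low group. The pairs were even, with differences of 0.61, 0.74 and 0.60, a mean of 0.65 ± 0.08 (SD of 3 pairs) and a ratio of 1.57-fold.

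Jund encodes the Jun protein that most cells keep at a steady level and induce less than Jun or Junb. Jund read 9.58, 9.69 and 9.43 log2 units in the high group at days 4, 6 and 9, and 9.09, 9.08 and 9.07 in the low group. The low samples spanned only 0.022, and the pair differences were 0.49, 0.61 and 0.36. The mean of 0.49 ± 0.12 (SD of 3 pairs), or 1.40-fold, was the smallest of the Jun subfamily. A second, dimmer row of Jund read 7.72, 7.96 and 7.69 log2 units in the high group and 7.53, 7.65 and 7.40 in the low group, with a difference of 0.26 ± 0.06 (SD of 3 pairs). In that row the groups were separated by only 0.036.

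Atf3 and Batf encode more distant zipper proteins that pair with Jun proteins. Atf3 is induced by many kinds of stress and mostly represses transcription as a pair of itself. The Atf3 level was 9.41, 9.62 and 9.13 log2 units in the high group at days 4, 6 and 9, and 8.15, 7.84 and 7.99 in the low group. The groups were 0.98 apart at their nearest samples, but the pairs were the least even of the family, with differences of 1.26, 1.78 and 1.14. The mean was 1.39 ± 0.34 (SD of 3 pairs), or 2.63-fold.

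Batf is known for its role in lymphocytes, where it pairs with Jun proteins and binds DNA together with IRF4. Batf read 6.67, 6.81 and 6.61 log2 units in the high group at days 4, 6 and 9, and 6.92, 6.80 and 6.57 in the low group. The groups overlapped throughout, and the pair differences were -0.26, 0.018 and 0.041, with a mean of -0.066 ± 0.16 (SD of 3 pairs). Without the day 4 pair the mean was 0.029. The 5 measured T cell markers had mean levels of 6.71 to 7.12 log2 units in the high group and 7.09 to 7.24 in the low group; their part in the Batf level was not tested.

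**Figure D2:**
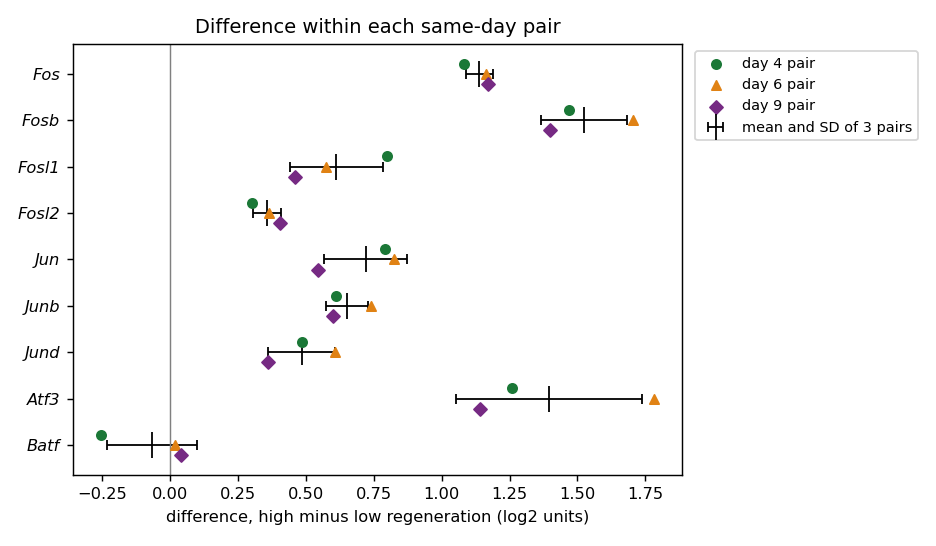
Difference in log2 level between the high- and the low-regeneration scar of the same day (horizontal axis) for each AP-1 gene (vertical axis), with 1 point per day pair and a bar for the mean and SD of 3 pairs. All points of 8 genes lie to the right of 0, farthest for Fosb and Atf3, and those of Batf lie on both sides.

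The genes did not all peak in the same pair. Among the 8 genes that were higher at all days, the difference was largest at day 6 for 5 genes (Fosb, Jun, Junb, Jund and Atf3), at day 9 for Fos and Fosl2, and at day 4 for Fosl1. Within the high group, the day 6 scar held the highest level of 7 of the 9 genes and the day 9 scar the lowest level of 7. In the low group, the day 4 and day 9 scars each held the highest level of 4 genes. The same counts were not made over all genes, so nothing about the family is read from them. The median difference of the 9 genes was 0.79 at day 4, 0.74 at day 6 and 0.55 at day 9, beside medians for all genes between -0.010 and -0.00072.

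Stretches just before the transcription start are shown for some inducible members with separate groups, Fos, Jun, Junb and Atf3, but not for Fosb. Each gives the last 120 bases before the start in RefSeq on GRCm38.p6, read 5′ to 3′ on the gene's strand. For Fos this is chr12:85473770-85473889 on the plus strand, for Jun chr4:95052223-95052342, for Junb chr8:84978749-84978868 and for Atf3 chr1:191183334-191183453, all 3 on the minus strand. Capitals mark TGACG on either strand, TGACNTCA and TATAAA.
Fos: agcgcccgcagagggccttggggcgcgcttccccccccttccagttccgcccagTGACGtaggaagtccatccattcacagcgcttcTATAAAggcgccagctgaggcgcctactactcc
Jun: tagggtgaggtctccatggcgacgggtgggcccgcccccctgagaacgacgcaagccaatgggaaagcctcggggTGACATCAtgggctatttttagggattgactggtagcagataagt
Junb: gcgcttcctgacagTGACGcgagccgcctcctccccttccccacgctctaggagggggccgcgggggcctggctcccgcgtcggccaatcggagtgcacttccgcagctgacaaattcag
Atf3: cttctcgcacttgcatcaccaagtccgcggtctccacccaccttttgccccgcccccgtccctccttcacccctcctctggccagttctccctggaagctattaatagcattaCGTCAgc

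The core TGACG, which many ATF and CREB sites share, was read on both strands in windows from 250 bases before to 50 bases after the start. It was chosen after the sequences had been seen. It lay in the windows of 5 of the 8 members with an entry (Fos, Fosb, Junb, Atf3 and Batf), and in 20.8% of all 32851 windows. Fos held it at bases -66 to -62 and again at -129 to -125, Fosb at -60 to -56, and Junb at -106 to -102, counted back from the start. In Atf3 it lay on the other strand at bases -7 to -3. Batf, whose groups overlapped, held it at -98 to -94. Nothing about the differences between the groups is read from these letters. TGACNTCA, which includes TGACGTCA, was found in the Jun window alone, as TGACATCA at bases -45 to -38, and in 8.83% of all windows. TATAAA was in the windows of Fos, at -33 to -28, and Junb, at 1 to 6 after the start, and in 13.6% of all windows. TGACTCA, a site that AP-1 binds but not the only one, was in 0 of the 8 windows and in 5.20% of all. TGACGTCA was in 0 and 1.79%, and the CArG box, the site of serum response factor, in 0 and 1.63%. Bases farther from the start were not searched, so an absence here does not show that a promoter lacks the site. Fosl1 was not included.

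The next comparison asked whether the AP-1 genes changed from day 4 to day 9, a measure that had not entered the choice of the family. The slope per day was fitted with limma over all 15191 genes, with the regeneration group as a covariate. This fit treated both scars of a date as independent, and a change over days cannot be told apart from one between dates. Of the 9 genes 0 passed at an adjusted p under 0.05, as was so for 0.0% of all genes tested, and the adjusted p ranged from 0.249 to 0.959. At an unadjusted p under 0.05, 1 member passed, in the falling direction, in which 9.24% of all genes did, while 6.94% rose.

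That member was Fosl1, with a slope of -0.075 ± 0.024 log2 units per day (SE, 95% interval -0.13 to -0.017, unadjusted p = 0.0195, adjusted p = 0.249 in limma). From day 4 to day 9 its level differed by -0.56 in the high group and by -0.22 in the low group. Junb, at 0.039 ± 0.017 (SE, 95% interval -0.0026 to 0.081, adjusted p = 0.325 in limma), and Fosl2, at 0.026 ± 0.017 (SE), had positive slopes, with a day 9 level above that of day 4 in both groups. The slopes of Fos (-0.028 ± 0.021), Jund (-0.019 ± 0.019), Batf (-0.044 ± 0.022) and Atf3 (-0.044 ± 0.032) were negative with day 9 below day 4 in both groups (all SE). Fosb and Jun, at -0.0061 ± 0.020 and 0.0026 ± 0.020 (SE), were the nearest to 0, and the 95% interval of Fosb ran from -0.055 to 0.042 per day. Because the fit took same-day scars as independent, these intervals may be too narrow.

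Whether the groups differed in their time course was tested by the interaction of day and group in limma. For the 9 genes 0 passed at an adjusted p under 0.05, as for 0.0% of all genes, and 0 at an unadjusted p under 0.05, where 1.86% of all genes had a higher and 2.1% a lower slope with high regeneration. Adjusted p ranged from 0.988 to 0.996. The widest 95% interval was that of Atf3, with a slope difference, high minus low, of -0.039 (-0.22 to 0.14) log2 units per day, which includes both a narrowing and a widening over these days. Fosl1, whose pair differences were smaller at each later day, had -0.065 (-0.18 to 0.046).

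**Figure D3:**
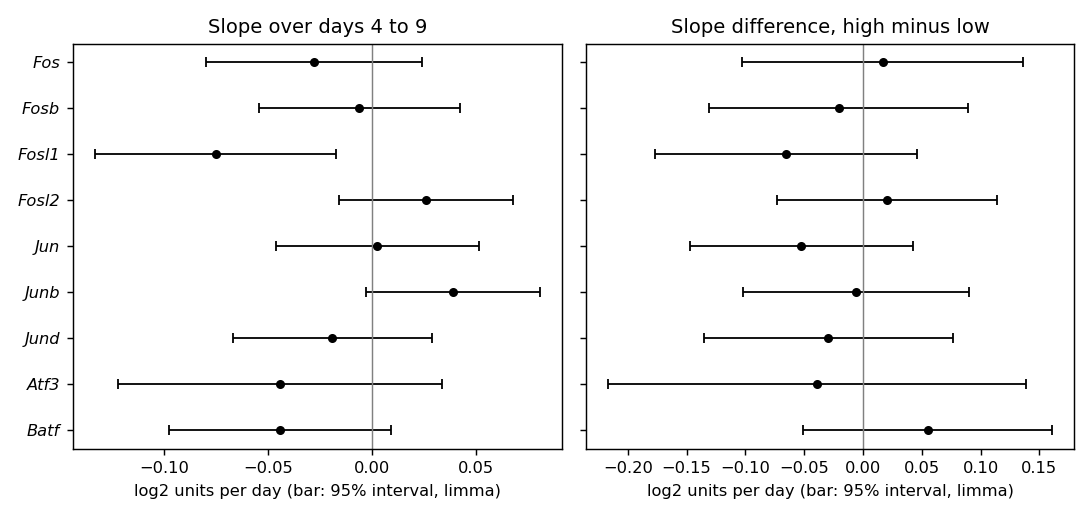
Slope of log2 level per day over both groups (left panel) and difference in slope between high and low regeneration (right panel) for each AP-1 gene, with bars for the 95% interval of the limma fit. The interval leaves out 0 for Fosl1 in the left panel and includes 0 for all 9 genes in the right panel.

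The genes most like a member were sought for Fos, Fosb and Atf3, whose level had an SD of at least 0.5 over the 6 samples. Most of that SD came from the difference between the groups: for Fos it was 0.63 over all samples and 0.12 within each group. Likeness was the root mean square distance between profiles centred on their own mean, so a small value means a difference of the same size in the same samples. The ranking thus rests on the difference that led to the choice of the family and is a description only. Nearest to Fosb was Nr4a1, an immediate early nuclear receptor, at 0.057 log2 units, followed by Atf3 at 0.13 and Fos at 0.22. The Nr4a1 level was 9.49, 9.49 and 9.43 in the high group at days 4, 6 and 9, and 7.89, 7.87 and 7.99 in the low group. Nearest to Atf3 were Fosb at 0.13, Nr4a1 at 0.17 and Fos at 0.20.

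Nearest to Fos was a chemokine rather than an AP-1 gene. Cxcl1, which draws neutrophils, was at a distance of 0.095, ahead of Zfp36, a protein that destabilises cytokine messages, at 0.13, and Btg2, an early gene that restrains cell division, at 0.14. The Cxcl1 level was 9.30, 9.16 and 9.15 in the high group at days 4, 6 and 9, and 8.16, 8.19 and 8.04 in the low group. Atf3 came eleventh from Fos and Fosb fifteenth, at 0.20 and 0.22, both with a larger difference than Fos. Batf, the neighbour of Fos on chromosome 12 with only the zipper gene Jdp2 between them among coding genes, was at a distance of 0.61. Its rank from Fos was 9310 among the genes tested.

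The other genes of the AP-1 network were taken from lists chosen with earlier results known. Of 17 genes measured and tested for other zipper proteins that can pair with AP-1 members, 10 were higher with high regeneration at all 3 days, 1 was lower and 6 were mixed, where 15.8% of all genes were higher and 18.3% lower. None passed (0 in limma, and 8 at an unadjusted p under 0.05, all higher, where 4.89% of all genes were higher and 5.17% lower). Their median difference was 0.16 log2 units. Cebpd, an acute-phase activator of the C/EBP family, differed by 0.88 ± 0.49, with 0.45, 0.77 and 1.41 at days 4, 6 and 9. Maff, a small Maf protein without an activation domain, differed by 0.45 ± 0.08, and Creb5, a relative of Atf2, by 0.44 ± 0.16 (all SD of 3 pairs). Jdp2, a repressor that pairs with Jun, differed by 0.31 ± 0.07 (SD of 3 pairs) between its neighbours Fos and Batf.

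The kinases and serum response factors that act upstream of AP-1 had a median difference of -0.022 over the 20 genes tested, with Mapk10 measured but below the dim filter. Of the 20, at all 3 days 2 were higher and 4 lower, where 15.8% and 18.3% of all genes were. In limma 0 passed, with 1 higher and 2 lower at an unadjusted p under 0.05, where 4.89% and 5.17% of all genes were. The groups were separate for 1 of the 20 in the higher and 1 in the lower direction, where 5.08% and 6.18% of all genes were. Both counts are near those shares, so nothing is read from them. The higher one was Srf, which encodes serum response factor. Its level was 8.95, 8.98 and 9.07 in the high group at days 4, 6 and 9, and 8.69, 8.66 and 8.63 in the low group, a difference of 0.34 ± 0.09 (SD of 3 pairs). Mapk14, the p38 alpha kinase, differed by -0.21 ± 0.10 and was the one separate in the lower direction. Mapk9, the JNK2 kinase, differed by -0.19 ± 0.09 (both SD of 3 pairs). These are message levels and do not show kinase activity.

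Genes reported as AP-1 targets in skin and fibroblasts lay on both sides of 0. Of 20 tested, with Il6 measured but below the dim filter, 6 were higher at all 3 days and 2 lower, where 15.8% and 18.3% of all genes were, and the median difference was 0.0057. In limma 0 passed, with 3 at an unadjusted p under 0.05, all higher, where 4.89% of all genes were. In 3 genes the groups were separate, all higher, where 5.08% of all genes were. Hbegf, a ligand of the EGF receptor that keratinocytes release in wounds, differed by 0.70 ± 0.39 (SD of 3 pairs), with 1.08, 0.73 and 0.29 at days 4, 6 and 9. Plaur, the receptor of urokinase, differed by 0.47 ± 0.12 and was separate between the groups. Mmp13, a collagenase, had the opposite sign at -0.56 ± 0.59, with most of it in the day 6 pair at -1.23 (SD of 3 pairs).

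Immediate early genes outside AP-1 had nearly the same median difference as the family, 0.60 against 0.65. Of 20 measured and tested, 19 were higher at all 3 days, where 15.8% of all genes were. The exception was Ccn2. In 18 the groups were separate, where 5.08% of all genes were. Nr4a1 and Nr4a3, 2 of 20, passed in limma, where 0.0527% of all genes did. Over all genes 0 passed after quantile normalization, without the dim filter, or without the pair of day 4 or day 9. Nr4a1 differed by 1.55 ± 0.09, Nr4a3 by 1.14 ± 0.06 and Btg2 by 0.96 ± 0.07 (SD of 3 pairs). This list had been seen to differ in earlier results of these arrays and is not independent support.

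No gene of these 4 lists passed for the slope over days in limma. At an unadjusted p under 0.05 there were 1 rising zipper gene, 1 rising and 1 falling upstream gene, 2 rising targets, and 2 rising and 1 falling immediate early genes. These lists held 17, 20, 20 and 20 tested genes in that order. Of all genes, 6.94% rose and 9.24% fell at that threshold, so no time trend of a list is read from these counts.

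**Figure D4:**
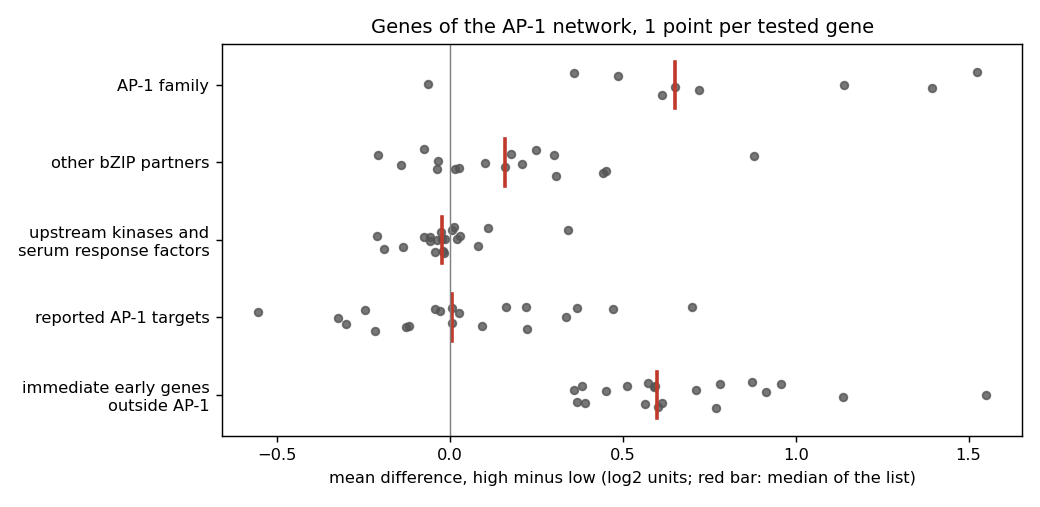
Mean difference in log2 level, high minus low regeneration (horizontal axis), for each tested gene of the AP-1 family and of the 4 related lists (vertical axis), with the list median as a bar. The family and the other immediate early genes centre at 0.65 and 0.60, and the upstream genes and the targets centre near 0.

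Some cell type markers differed between the groups as well. Of 7 inner root sheath and hair shaft markers, 5 were higher at all 3 days, where 15.8% of all genes were. The list's mean level was 8.48 to 11.2 log2 units in the high group and 6.67 to 8.49 in the low group. Of the 4 T cell markers above the dim filter, 3 were lower at all 3 days, where 18.3% of all genes were. The skeletal muscle list had mean levels of 6.26 to 7.54 in the high and 6.13 to 6.49 in the low group, and the neutrophil list of 5.96 to 6.70 and 6.19 to 6.42. The muscle means rest on 4 of 6 markers. The neutrophil means include S100a9 and Retnlg, which lay below the dim filter. Macrophage levels were 9.18 to 9.61 in the high and 9.32 to 9.49 in the low group, basal keratinocyte levels 9.97 to 10.43 and at most 10.17, differentiated keratinocyte levels 12.33 to 12.38 and 12.33 to 12.41, and fibroblast levels 10.69 to 10.88 and 10.84 to 10.92. The ranges of these list means overlapped between the groups in each list. Single markers were separate between the groups for 3 of the 4 T cell markers, all lower with high regeneration, and for 3 of the 7 hair markers, all higher, where 6.18% and 5.08% of all genes were. The part of these cell types in the AP-1 differences was not tested.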

How the data were processed

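The unit of the deposited values was taken to be log2 from the range they cover, 2.03 to 14.58; no label states it. Expression Console of Affymetrix and PLIER, an algorithm that sums probes into a level, are named in the submitters' processing notes without version or role, and background correction, filters and build are not given there. Per the labels' protocols, total RNA from biopsies kept in RNAlater was amplified in 1 round with random primers. Of 53145 rows, 25466 had 1 gene symbol in the platform annotation, 2299 had several and named no gene, and 25380 had none; 24868 were matched by gene identifier to GRCm38.p6. Tests used limma 3.58.1 in R 4.3.3, with adjusted p under 0.05 as the threshold, on genes with a mean of at least 5.60 log2 units. They were checked on simulated data whose samples were independent, with no effect of a shared date. That check cannot speak for the slope fit where same-day samples are alike. Day was a block in the comparison of groups because the design text gives each pair its own date. Deviations of same-day samples from their group means correlated at 0.50, 0.11 and 0.56 at days 4, 6 and 9 across genes. Between samples of different days the values ran from -0.49 to 0.14, so the day 6 value lay within their range. Members, lists and tests were chosen with earlier results of these data known. All 9 members were named in every comparison, and from each list the 3 largest differences of 1 sign in all pairs, with Jdp2 added after its value was seen. Listed genes with no row of 1 symbol were not analysed here, nor were protein sequences. A p-value here reflects the variation among these 6 samples only, and some may share an animal.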

Additional observations from a re-analysis of the deposited data

How the results depend on the processing

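The differences of most AP-1 genes moved little with the processing, and the counts of genes that passed moved much. The median difference of the 9 genes was 0.63 to 0.69 when a day pair was left out, 0.65 after quantile normalization and 0.72 over the 7 members left when the dimmest 50% of genes were removed. Averaging both rows of a gene moved Fosl2 from 0.36 to 0.47 and Jund from 0.49 to 0.37. The difference of Batf, near 0, went from -0.066 to 0.029 without the day 4 pair. Between the groups, 8 genes passed, and 0 after quantile normalization, 0 without the dim filter, 6 without the day block (replicate block) and 0 to 35 without a day pair. Fos and Fosb passed without the block, but 0 members did without the pair of day 4 or day 9, and Fosb and Atf3 did without that of day 6. For the slope, 0 genes passed, and 0 to 130 without 1 sample, the 130 without the high sample of day 6, none of them a member. For the slope difference the range was 0 to 83, chosen after seeing the data, the 83 without the high sample of day 9 and 1 without that of day 4, none a member. Slopes near 0 changed sign: Fosb to 0.0080 after quantile normalization, and without 1 sample over -0.021 to 0.013 (Fosb), -0.017 to 0.031 (Jun) and -0.030 to 0.0041 (Jund). Slope differences did so without 1 sample over -0.054 to 0.11 (Fos), -0.071 to 0.065 (Fosb), -0.018 to 0.071 (Fosl2), -0.091 to 0.013 (Jun), -0.046 to 0.064 (Junb), -0.083 to 0.062 (Jund) and -0.14 to 0.13 (Atf3). The causes were not tested.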
